A study of Homo sapiens with 3 samples.

Results

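FHIT, WWOX, MACROD2, LRP1B, CNTNAP2, DLG2, PTPRD and CSMD1 are among the longest human genes, and several lie at common fragile sites, where chromosomes tend to break when replication is slowed. These 8 genes were chosen by name and not by a measured threshold, and each was followed over a gene body given in whole kb of hg19. All 8 were placed, of 20056 protein-coding genes in the RefSeq gene table. The bodies ran from 1114 kb (WWOX) to 2305 kb (CNTNAP2) and came to 15409 kb. They held 156 of the 117564 peaks of untreated cells and 129 of the 131798 peaks after treatment with dihydrotestosterone (DHT), the main androgen of the prostate.

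The peaks mark histone H3 trimethylated at lysine 36 (H3K36me3), mapped by chromatin immunoprecipitation and sequencing in LNCaP, an established prostate cancer line that responds to androgen. One library came from cells with no treatment and 1 from cells given 100 nM DHT for 4 h in red-free RPMI. The labels do not describe a matched change of medium for the untreated cells, so hormone and medium cannot be told apart. With 1 library per condition there is no test between conditions, and all intervals are 95% intervals that cover counting error only.

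H3K36me3 is written by SETD2, which travels with elongating RNA polymerase II, so the mark lies within the bodies of transcribed genes and usually builds up toward their 3′ ends. In a gene of more than a megabase, polymerase needs many hours to reach the end, and most of the body is intron. FHIT and WWOX span the fragile sites known as FRA3B and FRA16D and are widely studied as genes lost or broken in tumours. CNTNAP2, DLG2, PTPRD, CSMD1 and LRP1B are best known from the brain.

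Whole nuclear chromosomes were covered by peaks over 2.08% of their span in untreated cells and 2.13% after DHT. None of the 8 bodies reached that level in its library. Together they were covered over 0.409% (0.336% to 0.482%) in untreated cells and 0.303% (0.242% to 0.364%) after DHT. CSMD1 held 78 of the 156 untreated peaks and 72 of the 129 DHT peaks. Its own coverage was 1.92% (1.44% to 2.39%) untreated and 1.44% (1.05% to 1.84%) after DHT. The untreated interval includes the 2.08% of all chromosomes. Without CSMD1, the 7 other bodies were covered over 0.176% and 0.128%. A peak list from a cell population cannot tell a mark carried by few cells from a weak mark in all of them.

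**Figure D1:**
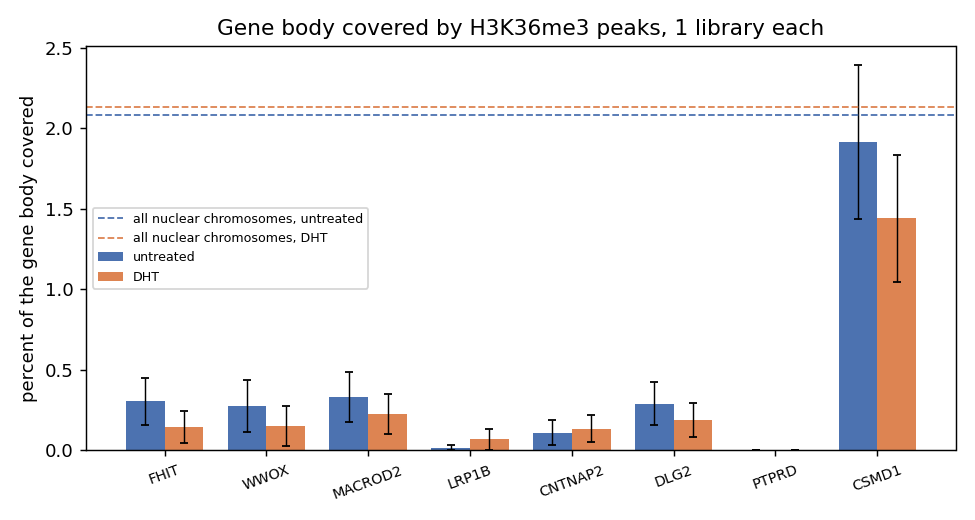
Percent of each gene body covered by H3K36me3 peaks (vertical axis) in untreated cells and after DHT, with 95% counting intervals. Dashed lines give the level of all nuclear chromosomes, 2.08% and 2.13%; CSMD1 lies closest to them at 1.92% and 1.44%, and PTPRD is at 0.

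Cut into bins of 100 kb from the 5′ end, the bodies gave 158 bins. A peak lay in 45 bins (28.5%) of untreated cells and in 37 (23.4%) after DHT. Over all 30940 windows of 100 kb, the shares were 55.3% and 56.7%. The last bin was shorter than 100 kb in every gene but LRP1B, down to 2 kb in FHIT. No peak of either library lay in 102 of the 158 bins, against 11214 of the 30940 windows (36.2%). The bodies were thus emptier than the chromosomes as a whole, by a margin with no test, since these are 2 libraries.

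The genes differed in where their peaks lay. FHIT, WWOX, MACROD2 and DLG2 had scattered narrow peaks that were densest near the 5′ end. CNTNAP2 had peaks in 2 groups away from its 5′ end, LRP1B had at most 4 peaks and PTPRD had none. CSMD1 had a dense stretch at its 3′ end and an almost empty remainder.

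**Figure D2:**
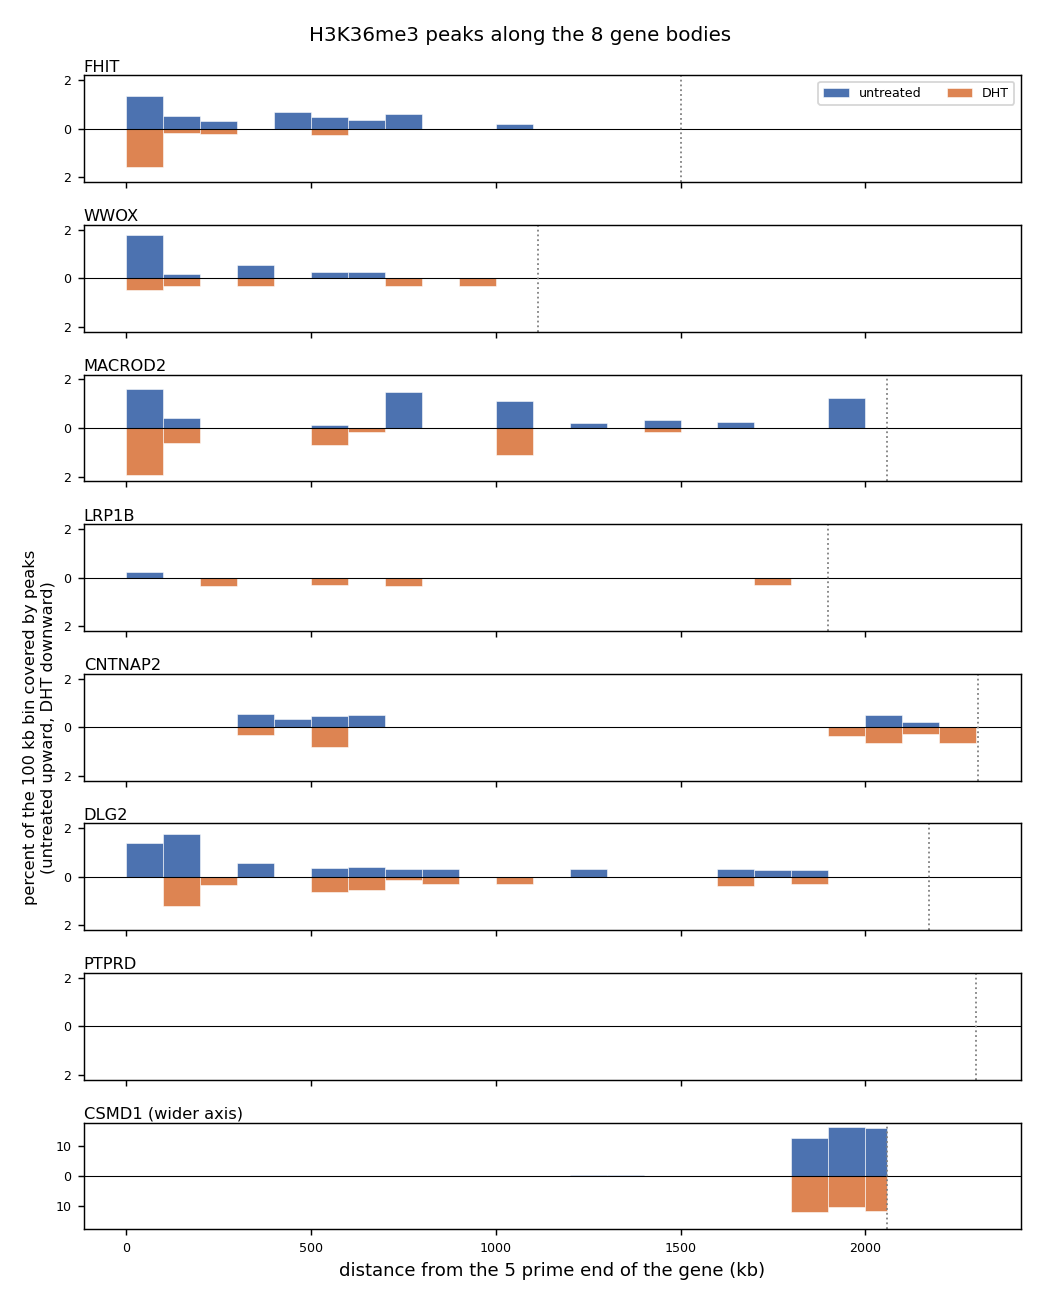
Percent of each 100 kb bin covered by peaks along the 8 genes, by distance from the 5′ end in kb, with untreated cells plotted upward and DHT downward; dotted lines mark gene ends. The CSMD1 panel has a wider axis, since its last 3 bins are 10.4% to 16.6% covered while no bin of the other genes has more than 1919 bp covered.

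The promoters of 4 genes are shown because they set 2 genes with peaks in the first 100 kb in both libraries, WWOX and MACROD2, beside 2 with none there, CNTNAP2 and PTPRD. Each is the 120 bases just upstream of the outermost listed start, from RefSeq on GRCh38.p14, written 5′ to 3′ with CG dinucleotides in capitals. WWOX is at chr16:78099534-78099653 (plus strand), MACROD2 at chr20:13995396-13995515 (plus), CNTNAP2 at chr7:146116681-146116800 (plus) and PTPRD at chr9:10613003-10613122 (minus).
WWOX: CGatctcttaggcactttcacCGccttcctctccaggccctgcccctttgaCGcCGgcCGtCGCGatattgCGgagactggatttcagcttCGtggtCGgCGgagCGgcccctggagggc
MACROD2: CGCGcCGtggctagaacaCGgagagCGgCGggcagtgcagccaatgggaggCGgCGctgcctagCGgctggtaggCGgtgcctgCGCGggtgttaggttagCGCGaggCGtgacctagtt
CNTNAP2: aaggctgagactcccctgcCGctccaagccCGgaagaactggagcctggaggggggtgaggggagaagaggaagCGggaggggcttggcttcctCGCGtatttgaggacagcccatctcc
PTPRD: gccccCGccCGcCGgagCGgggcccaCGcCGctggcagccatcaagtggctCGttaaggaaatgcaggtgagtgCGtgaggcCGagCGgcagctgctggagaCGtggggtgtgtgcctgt

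CG, which reads the same on both strands, was counted over the 250 bases upstream of the start. PTPRD held 32 CG and MACROD2 29, and 9.52% and 14.1% of the 35116 listed promoters hold as many or more. WWOX held 27 (17.7%), DLG2 20 (32.4%), CNTNAP2 12 (48.5%) and FHIT 11 (50.3%). Of the 8 genes, these 6 matched the promoter table. Among them PTPRD, with the most CG upstream of its start, had no peak in its body, and all the others had peaks. FHIT, with the fewest CG, had 6 peaks in its first 100 kb in each library. A relation between CG and peaks was not tested.

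FHIT, a hydrolase of diadenosine triphosphate, runs from 59735 to 61237 kb on chromosome 3. It held 17 peaks (9.90 to 27.2) over 4566 bp untreated and 9 (4.12 to 17.1) over 2193 bp after DHT. Covered length after DHT was 0.480 times the untreated length (0.209 to 1.10), an interval that includes 1. In each library 6 peaks lay in the first 100 kb. Only the untreated peak at 61177369 to 61177567 and the DHT peak at 61177362 to 61177556 overlapped there. Covered length in those 100 kb was 1351 bp untreated and 1564 bp after DHT. The lower total after DHT therefore lay further in: from 400 to 800 kb there were peaks in all 4 untreated bins and in 1 DHT bin. Apart from the peak scoring 137, untreated peaks there scored 50.6 to 60.8, at most the 22.7 percentile of their list. None of those low-scoring peaks overlapped a DHT peak. Beyond 1058 kb from the 5′ end FHIT had no peak in either library. Its highest-scoring peak was the same in both, at 60685679 to 60685867 (score 137) and 60685623 to 60685868 (score 137).

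WWOX encodes a short-chain oxidoreductase with WW domains and runs from 78133 to 79247 kb on chromosome 16. It held 12 peaks over 3078 bp untreated and 6 over 1701 bp after DHT, a ratio of 0.553 (0.205 to 1.49). In untreated cells 7 of the 12 peaks lay in the first 100 kb, covering 1798 bp, and after DHT 2 of 6 did, covering 479 bp. One peak about 16.0 kb from the 5′ end stood out after DHT, at 78148859 to 78149060, with a score higher than 97.7% of that list. It overlapped an untreated peak at 78148826 to 78149052, which lay at the 68.0 percentile of its own list. Scores were compared only within a list, since their scale is not stated.

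MACROD2, an enzyme that removes ADP-ribose from proteins, runs from 13976 to 16034 kb on chromosome 20, and the neuronal adhesion gene FLRT3 lies inside it. It held 20 peaks over 6821 bp untreated and 15 over 4642 bp after DHT, a ratio of 0.681 (0.333 to 1.39). The first 100 kb were again the most covered bin in both libraries, with 1623 and 1919 bp. The widest DHT peak, 755 bp at 14008483 to 14009237, lay there and spanned an untreated peak of 460 bp at 14008564 to 14009023. Farther in, the bin from 1000 to 1100 kb held 1132 and 1113 bp. Bins from 700 to 800 kb and from 1900 to 2000 kb held 1487 and 1232 bp of untreated peaks and no DHT peak.

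DLG2, a scaffold protein of synapses also called PSD-93, runs from 83166 to 85338 kb on chromosome 11. It held 19 peaks over 6319 bp untreated and 13 over 4120 bp after DHT, a ratio of 0.652 (0.314 to 1.36). The first 100 kb held 4 untreated peaks over 1393 bp and no DHT peak. The next 100 kb held 1774 bp untreated and 1220 bp after DHT, and 3 peaks were shared there. The peak near 143 kb was the highest-scoring of the gene in both libraries, at 85194932 to 85195270 untreated (score 237, above 94.9% of the list) and 85194925 to 85195306 after DHT (score 567, above 99.6%). It was narrow, at 339 and 382 bp.

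Over the 7 genes without CSMD1, 39.4% of the untreated covered length and 36.8% of the DHT covered length lay in the first 200 kb, which is 10.5% of the bodies. Those 200 kb were covered over 0.663% and 0.448%, still below the level of all chromosomes. Of the covered length, 22.4% untreated and 26.8% after DHT lay beyond the midpoint. Beyond 200 kb coverage went up and down between bins. It was 0.0454% and 0.125% from 200 to 300 kb, and 0.249% and 0.384% from 500 to 600 kb. Untreated coverage was already 0.238% from 300 to 400 kb and was 0.349% from 700 to 800 kb. DHT coverage was 0 from 400 to 500 kb and 0.112% from 700 to 800 kb. The share beyond the midpoint was at most 37.9% in FHIT, WWOX, MACROD2, DLG2 and LRP1B in either library, and in CNTNAP2 it was 28.1% untreated and 63.2% after DHT.

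**Figure D3:**
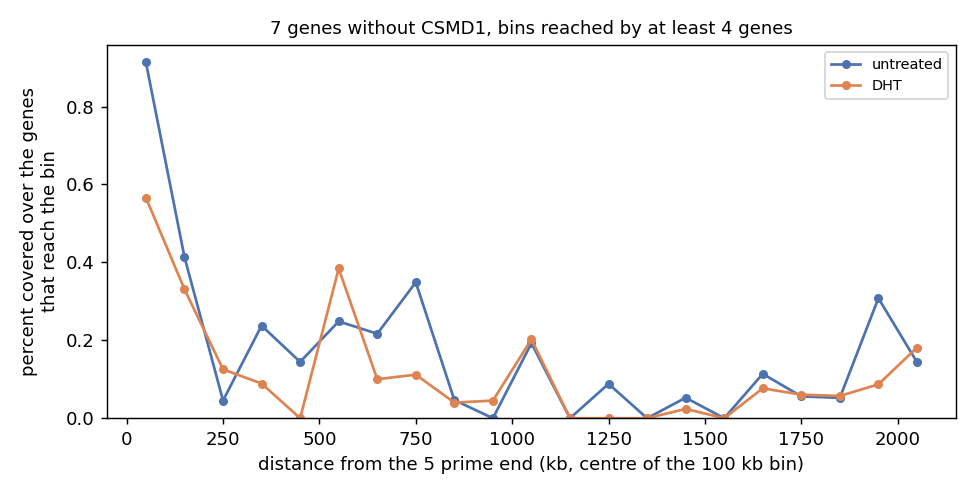
Percent covered (vertical axis) by distance from the 5′ end in kb over the 7 genes without CSMD1, for bins that at least 4 genes reach. Coverage is highest in the first bin, 0.913% untreated and 0.566% after DHT, and in the second it is 0.414% and 0.331%.

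CNTNAP2, a cell adhesion protein of the neurexin superfamily found along myelinated axons, runs from 145813 to 148118 kb on chromosome 7. It held 9 peaks over 2549 bp untreated and 10 over 3098 bp after DHT, a ratio of 1.22 (0.481 to 3.07). Its first 300 kb had no peak in either library. Peaks lay in 2 groups in both, one 300 to 700 kb from the 5′ end and one beyond 1900 kb. Between them, 1280 kb from 146438156 to 147718641 held no peak, which is 55.6% of the gene. None of the CNTNAP2 peaks overlapped between libraries, 0 of 9 untreated (0% to 29.9%) and 0 of 10 after DHT (0% to 27.8%). Over whole lists the shares were 52.3% and 48.5%. Scores were low, with 3 of the 9 untreated peaks and 0 of the 10 DHT peaks at or above the list median.

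LRP1B, a giant endocytic receptor of the low-density lipoprotein receptor family, runs from 140989 to 142889 kb on chromosome 2. It held 1 untreated peak (0.0253 to 5.57) and 4 DHT peaks (1.09 to 10.2). The untreated peak, at 142888774 to 142889015, lay across the 5′ boundary of the body. That boundary is given in whole kb, so the peak was not placed against the start of the gene. The 4 DHT peaks were spread from 238 to 1746 kb and none scored at or above the list median. Counts this small do not separate the libraries, and a stretch of 1015 kb within the gene was free of peaks.

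PTPRD, a receptor-type tyrosine phosphatase that acts in synapse formation, runs from 8314 to 10613 kb on chromosome 9 and held no peak in either library. A count of 0 allows up to 3 peaks by a one-sided limit, or 1.30 per Mb, and the exact interval ends at 3.69 peaks, where all chromosomes had 38.01 per Mb untreated and 42.6 per Mb after DHT. The empty stretch around it ran from 7795796 to 10947110, or 3151 kb, and was the 20th longest of all stretches without peaks. Stretches of at least 1000 kb numbered 225 and made up 15.2% of the chromosomes, gaps in the assembly included. PTPRD was thus the only 1 of the 8 genes to lie wholly inside such a stretch.

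CSMD1, a membrane protein with CUB and sushi domains that restrains complement, runs from 2793 to 4852 kb on chromosome 8, and its peaks were laid out unlike those of the other 7. Its last 3 bins, the 259 kb at the 3′ end or 12.6% of the gene, held 75 of 78 untreated peaks and all 72 DHT peaks. They were covered over 15.0% in untreated cells and 11.5% after DHT. Taken from the 5′ side, the 3 bins were covered over 12.8%, 16.6% and 16.0% untreated and 12.2%, 10.4% and 11.8% after DHT. All 3 passed 10% in both libraries, which 5.59% of all windows did untreated and 5.88% after DHT. No bin of the other 7 genes did.

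The edges of the CSMD1 stretch were sharp. The last peak on its 5′ side ended at 3038484 in untreated cells and 3038477 after DHT, 7 bp apart and 245 kb inside the gene. Both of these peaks scored low, 51.28 untreated (3.13 percentile) and 58.85 after DHT (16.5 percentile). On the other side, the first 10 kb beyond the annotated 3′ end held 1 untreated peak over 2.21% of the sequence and no DHT peak, and the next 240 kb were empty in both. Peaks within the stretch were 2067 bp apart at the median untreated and 2236 bp after DHT, and the widest gap was 9813 and 12388 bp. Peaks thus lay along the end of the gene and stopped near its annotated end.

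**Figure D4:**
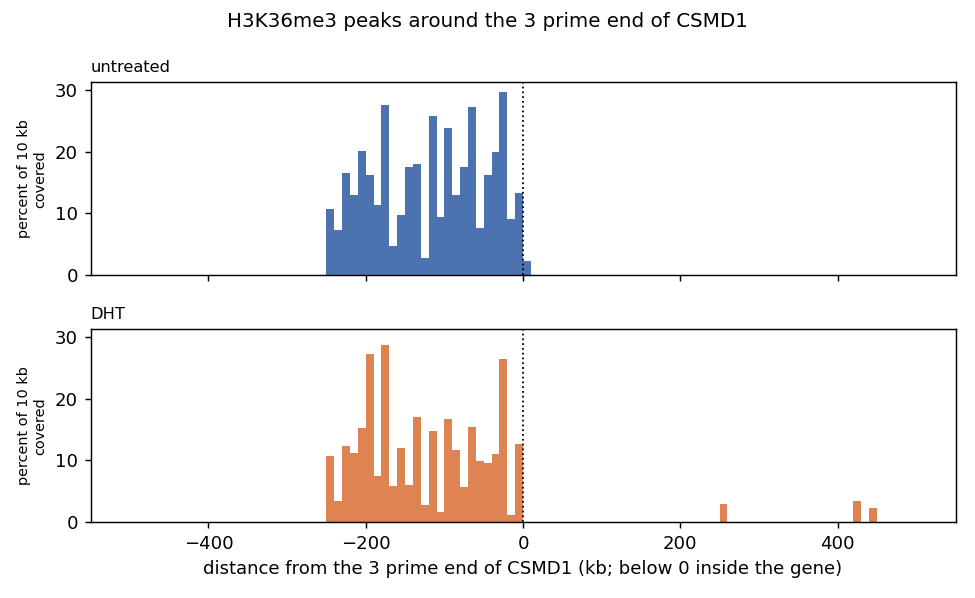
Percent of each 10 kb bin covered by peaks (vertical axis) from 500 kb inside CSMD1 to 500 kb past its 3′ end (dotted line), in untreated cells and after DHT. Peaks begin 245 kb before the end in both libraries and reach 29.7% of a bin untreated and 28.7% after DHT.

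Within the stretch, peaks were wider and scored higher than in the other 7 genes. Median width was 459 bp untreated and 342 bp after DHT, against 304 and 302 bp in those genes. Over whole lists it was 374 and 354 bp, so after DHT the stretch had a lower median width than its list. In the stretch, 65.3% and 61.1% of peaks scored at or above the list median. The highest-scoring untreated peak lay at 2801604 to 2802065 (score 483, above 99.5% of its list) and overlapped a DHT peak at 2801605 to 2802205 (score 492, above 99.3%). The highest after DHT lay at 2812881 to 2813519 (score 692, above 99.8%) and overlapped an untreated peak that starts at the same base. Widest were an untreated peak of 1423 bp at 2819725 to 2821147 and a DHT peak of 1532 bp at 2965969 to 2967500.

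The remainder of CSMD1 was nearly bare. It held 3 untreated peaks over 658 bp and no DHT peak. From 3616405 to 5909989 no peak was found, which takes in 60.0% of the gene with its 5′ end, and the 500 kb upstream were empty in both libraries. Over the whole gene, DHT over untreated coverage was 0.752 (0.519 to 1.09), an interval that includes 1.

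Sharing between the libraries followed the same division. In the CSMD1 stretch a DHT peak overlapped 52 of 75 untreated peaks (69.3%, 58.2% to 78.6%), and an untreated peak overlapped 56 of 72 DHT peaks (77.8%, 66.9% to 85.8%). In the 7 other genes 13 of 78 (16.7%, 10.01% to 26.5%) and 13 of 57 (22.8%, 13.8% to 35.2%) were. Over whole lists the shares were 52.3% and 48.5%. The 7 genes had low-scoring peaks, with 28.2% and 31.6% at or above the list median. Shares lay below those of the whole lists on both sides of that median. Below it, 5 of 56 untreated peaks (8.93%, 3.87% to 19.3%) and 5 of 39 DHT peaks (12.8%, 5.60% to 26.7%) were overlapped, against 38.8% and 31.0% of all such peaks. At or above it, 8 of 22 (36.4%, 19.7% to 57.05%) and 8 of 18 (44.4%, 24.6% to 66.3%) were, against 65.7% and 65.9%. The interval of the last DHT share includes the 65.9%. Peaks of the 7 genes were also narrower than those of whole lists. At or above the median, their median width was 227 bp untreated and 262.5 bp after DHT, against 454 and 407 bp. Below it, they had 304.5 and 303 bp, against 332 and 330 bp. Shares were not adjusted for width or local coverage, and the bearing of either was not tested. The shared peaks of the 7 genes lay in FHIT (3), WWOX (2), MACROD2 (4) and DLG2 (4).

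**Figure D5:**
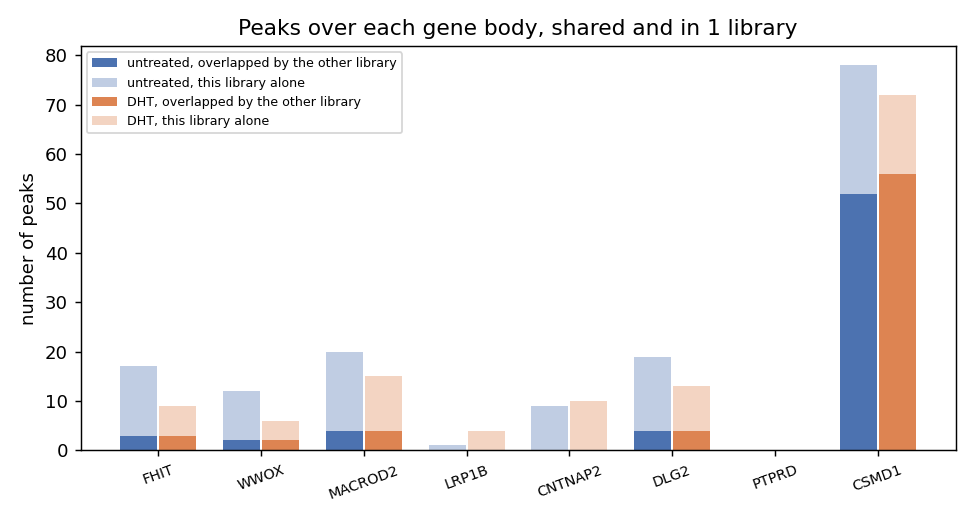
Number of peaks over each gene body (vertical axis) in untreated cells and after DHT, with the part overlapped by a peak of the other library in full colour and the remainder pale. Most CSMD1 peaks are shared, 52 of 78 and 56 of 72, while LRP1B and CNTNAP2 share none.

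After DHT the 8 bodies together had a covered length 0.741 times that of untreated cells (0.567 to 0.970), where all nuclear chromosomes had a ratio of 1.03. That interval takes peaks as independent, although many lay close together in CSMD1. CSMD1 held 39432 of the 62992 bp untreated and 29662 of the 46707 bp after DHT. Without it the ratio was 0.723. FHIT, WWOX, MACROD2, DLG2 and CSMD1 were less covered after DHT, and LRP1B and CNTNAP2 more. In the higher-scoring 50% of each list the direction turned for FHIT, WWOX and CNTNAP2, with differences of 0.0381, 0.0206 and -0.0366 percentage points, DHT minus untreated. LRP1B kept no peak of either library there, so its difference was 0. The interval of every single gene included 1, and with 1 library a condition the spread between libraries of untreated cells is unknown. Bins were compared where either library covered 1 kb or more. By a 2-fold rule, no bin was higher after DHT and 4 were lower, against 3.65% and 2.69% of all windows. Only 11 of the 158 bins had 1 kb covered and could meet the rule. The 4 bins were 36.4% of those 11, where 7.11% of the 11694 windows with 1 kb covered were lower and 9.65% higher. Those windows were not matched to the bins for covered length, and they include windows at least 10% covered. The 4 bins held 1232 to 1798 bp untreated, not far above 1 kb, so the shares are not like for like. The 4 bins were the first of WWOX and of DLG2 and those of MACROD2 from 700 and 1900 kb. When just the higher-scoring 50% of peaks were kept, none of the 4 bins had 1 kb left, so the rule could not be met. The untreated length left was 548 bp in WWOX, 467 bp in DLG2, 599 bp in the MACROD2 bin from 1900 kb and 0 in that from 700 kb, beside 479 bp of DHT peaks in WWOX and 0 in the other bins.

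The sequence next to DLG2, MACROD2, FHIT, CNTNAP2 and PTPRD was more covered than the genes on at least 1 side. That next to CSMD1, WWOX and LRP1B was less covered than the genes on both sides. The 500 kb upstream of DLG2, toward TMEM126B, were covered over 3.29% untreated and 3.16% after DHT, and the 500 kb downstream, toward CCDC90B, over 3.55% and 2.99%. MACROD2 had 3.79% and 3.79% upstream and 3.15% and 1.99% downstream, where KIF16B, a kinesin motor gene, follows. FHIT had 1.35% and 1.22% upstream, toward the phosphatase gene PTPRG, and 0.114% and 0.0642% downstream. CNTNAP2 had none upstream and 3.45% and 3.70% downstream. WWOX had at most 0.130% on either side, so low coverage there reached past the gene. CSMD1 had none upstream and 0.0442% and 0.172% downstream, far below its body. LRP1B had at most 0.003% upstream, 15 bp of the untreated peak across its boundary, and at most 0.0674% downstream. PTPRD had 0.739% and 0.415% upstream and none downstream. Over the 8 genes, 500 kb flanks averaged 1.15% and 1.08% upstream and 1.29% and 1.14% downstream.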

How the data were processed

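For each library the authors deposited a list of MACS peaks (per the peak names) with a score per peak, on hg19, as the file names state. Scores lay between 50 and 3100, and their scale is not given in the sources used here, nor are the caller's settings, the control, the aligner or the read depth, so the depth behind a peak is unknown. The input library was not analysed here. The 4 and 3 mitochondrial peaks were set aside.

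Peaks with at least 1 bp in a body were counted and clipped to it, with Python 3.11.15, NumPy 2.4.6, pandas 2.3.3 and SciPy 1.17.1. Windows of 100 kb were tiled from position 1 to the last peak of each of the 24 chromosomes. Intervals are exact Poisson for peak numbers, Wilson for shares, and for covered length use squared peak widths as a Poisson variance, taking peaks as independent. Functions recovered 9 of 9 known answers on 5000 simulated peaks. Positions count from 1.

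Gene models of hg19 were not at hand, so exons, introns and other genes were not placed. The RefSeq table on GRCh38.p14 gave names and neighbours only. Strand came from the promoter table for 6 genes and from general knowledge for LRP1B and CSMD1. One further gene given with the members is not reported here and is in none of the sums. The 8 genes are named, with the widest and highest-scoring peaks and most covered bins; other peaks and bins were singled out after their values were seen. Members and rules were chosen with earlier results of these data known. Alternatives were other peak lists, joining, trimmed bodies, bin sizes and thresholds, and leaving out CSMD1.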

Additional observations from a re-analysis of the deposited data

How the results depend on the processing

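The covered length ratio of the 8 bodies, 0.741, stayed below 1 under all 6 alternatives run for it, from 0.695 to 0.864. In what follows untreated comes before DHT, and where 1 value is given it is named. Leaving out CSMD1, the most covered gene, gave 78 and 57 peaks, 0.176% and 0.128% covered, 16.7% and 22.8% of peaks overlapped, and 28.2% and 31.6% of peaks at or above the list median score, against 45.5% and 48.1%. It also turned the share of covered length beyond the midpoint from 71.0% and 73.3% to 22.4% and 26.8%, so that share in the 8 genes rests on CSMD1. The higher-scoring 50% of each list, which holds fewer peaks by construction, gave 71 and 62 peaks, 0.233% and 0.162% covered and 19 and 17 bins with a peak. In untreated cells it gave 53.5% overlapped, 84.3% beyond the midpoint and 1 gene above the level of all chromosomes. Joining peaks at 5 kb gave 88 and 67 peaks, 1.23% and 1.06% covered, 30.7% and 41.8% overlapped, 84.3% and 88.7% beyond the midpoint, and 1 and 1 gene above the level of all chromosomes. With joining at 1 kb, DHT coverage was 0.376%. Of the peaks, 25% and 27.9% were in the higher-scoring 25% of their list. Bins past 2-fold and higher after DHT, 0 in the report, numbered 1 with joining at 1 kb and 3 with joining at 5 kb. Lower bins, 4 in the report, numbered 0 in the higher-scoring 50%, where none of the 4 keeps 1 kb, 1 with 50 kb taken off each end, 1 in bins of 50 kb and 0 with at least 5 kb covered. The difference in percent covered, DHT minus untreated, changed sign in the higher-scoring 50% for FHIT (0.0381), WWOX (0.0206) and CNTNAP2 (-0.0366); the cause was not tested. The direction after DHT in these 3 genes therefore depends on the peaks kept. LRP1B, with no peak of either library kept, had a difference of 0. Bins from the left end and overlap by score were chosen after seeing the data. No paired analysis was possible because each condition has 1 library.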
